A study of Mus musculus with 124 samples.

Results

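The genes described here encode 10 receptors through which the arousal transmitters act on the cortex: the orexin receptors Hcrtr1 and Hcrtr2, the histamine receptors Hrh1 and Hrh3, the adrenoceptors Adra1a, Adra1b and Adrb1, the serotonin receptors Htr1a and Htr2a, and the muscarinic acetylcholine receptor Chrm1. They were chosen by name, and all 10 of the 10 listed were found among the 17108 named genes of the cortex expression table. RNA was measured in the cortex of 62 mice aged 11 to 12 weeks, under a 12 h light and 12 h dark cycle with free access to food. In the sleep-deprived mice (SD, 36 mice), gentle handling prevented sleep for up to 6 h from lights on, which is ZT0 (zeitgeber time 0). Groups of 3 were taken at 12 times, named by the hours since a day-long baseline began. T27 and T30 fell after 3 h and 6 h of deprivation. T36 and T42 fell 6 and 12 h after its end, T48 and T54 fell 18 and 24 h after it, T60 and T66 fell 30 and 36 h after it, T72 and T78 fell 42 and 48 h after it, and T192 and T198 fell 162 and 168 h after it. The undisturbed mice (NSD, 26 mice) were taken on the baseline day at ZT0 (n = 8), ZT3 (n = 3), ZT6 (n = 5), ZT12 (n = 5) and ZT18 (n = 5), and each SD time was compared with the NSD mice of the same ZT. The labels used here name no genotype, and each library is labelled with its own mouse. Deprivation was by handling, so loss of sleep and the handling itself cannot be told apart.

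Orexin neurons of the lateral hypothalamus, histamine neurons of the tuberomammillary nucleus, noradrenaline neurons of the locus coeruleus, serotonin neurons of the raphe and cholinergic neurons of the basal forebrain send axons to the cortex and, in general, fire more in waking than in sleep. Hcrtr1, Hcrtr2, Hrh1, Adra1a, Adra1b, Htr2a and Chrm1 encode receptors that couple mainly to Gq and raise neuronal excitability, Adrb1 couples to Gs and raises cyclic AMP, and Hrh3 and Htr1a couple to Gi and are also autoreceptors of the histamine and serotonin neurons. In a piece of cortex the mRNA measured is mostly that of the receiving cells, since the transmitter-making cell bodies lie mostly elsewhere. Of the 10 marker genes of such cell bodies, Hcrt, Dbh, Slc6a4 and Slc6a2 had no row in the table, and the other 6 had mean levels between −1.71 (Slc18a3) and 0.80 (Tph2) log2 CPM. One library stood apart in these genes: in SD mouse T48S3 their summed level was 4.64 log2 CPM, against 2.29 and 2.34 log2 CPM in the other SD mice of T48 and 2.27 to 2.59 log2 CPM in NSD mice of ZT0, and its Tph2 level was 3.72 log2 CPM, against 0.40 to 1.09 log2 CPM in those NSD mice.

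The values are log2 CPM (reads of a gene relative to all reads of its library), adjusted for batch before deposit. Of the 6 listed markers of cortical excitatory neurons, the glutamate transporter gene Slc17a7 had the highest mean level, 10.11 log2 CPM, and Emx1 the lowest, 4.08 log2 CPM. These levels do not check the borders of the dissection. Depth per library is unknown. Library batch 1 held 40 libraries and batch 2 held 22. Batch 2 held each SD library of T60 and T66 and of T192 and T198, and batch 1 held the other SD libraries and the ZT3 controls. For those groups the batch cannot be told apart from the group. The batch term of the fit was 0 for every gene, so any separation rests on the adjustment made before deposit. In bulk tissue, fewer cells of a type and less RNA per cell cannot be told apart. Tests were made with limma over all 62 libraries, with Benjamini-Hochberg adjustment over all 17108 genes and a threshold of 0.05, and a change is called only past it.

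The receptors differed widely in level. Per kilobase of exon, averaged over all libraries on the log scale, Chrm1 was highest at 29.9 CPM per kb and Hrh3 followed at 21.8 CPM per kb. Adrb1 stood at 8.33, Htr2a at 7.84, Adra1b at 6.09, Hrh1 at 3.96, Htr1a at 3.58 and Adra1a at 1.91 CPM per kb. The orexin receptors were lowest, at 0.586 CPM per kb for Hcrtr1 and 0.396 CPM per kb for Hcrtr2. The mean level of Hcrtr1, 0.61 log2 CPM, stood at the 19.7th percentile of all genes, and that of Hcrtr2 at the 24.5th. The residual SD between mice of a group was widest for Hcrtr1 (0.33 on the log2 scale), Adra1a (0.32) and Hcrtr2 (0.30). For Hcrtr1 the SD within a group was largest at T48 (0.76), the group of T48S3. Chrm1 had the narrowest, 0.07.

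All 10 are protein-coding genes on mouse build GRCm38. Hrh1 lies on the plus strand of chromosome 6 (114397936 to 114483296), Hrh3 on the minus strand of chromosome 2 (180099465 to 180104488) and Hcrtr2 on the minus strand of chromosome 9 (76225880 to 76323856). Htr1a lies on the plus strand of chromosome 13 (105443639 to 105448122), Htr2a on the plus strand of chromosome 14 (74640840 to 74709494) and Adrb1 on the plus strand of chromosome 19 (56722199 to 56733113). Chrm1 lies on the same strand of chromosome 19 (8663789 to 8683587) and Adra1a on the plus strand of chromosome 14 (66635251 to 66771168). Hcrtr1 lies on the minus strand of chromosome 4 (130130217 to 130139359) and Adra1b on the minus strand of chromosome 11 (43774606 to 43901210). Hcrtr2, Hrh3 and Chrm1 each overlap an annotated gene on the opposite strand (Gm27234, Gm17180 and Gm22820), none of which had a row of its own in the cortex table; whether the counting used strand is not known here, so reads of the pairs may be mixed.

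RefSeq promoter windows (GRCm38.p6, 250 bases before to 50 after each annotated start) were available for 8 of the 10 genes, all but Adra1a and Chrm1. They were searched on both strands for 4 motifs: the E-box CACGTG of clock factors, the cyclic AMP response element TGACGTCA, the AP-1 motif TGANTCA of Fos and Jun, and the D-box TTANGTAA of Tef, Hlf and Dbp. Of 32851 mouse promoter windows, 7.15% held the E-box, 1.79% the cyclic AMP response element, 7.81% the AP-1 motif and 2.32% the D-box; no pair of these motifs matched at the same place in the windows of the 8 genes. The only matches were AP-1 motifs in 1 of the 4 windows of Hrh1, 216 bases before that start, and in 1 of the 2 windows of Adra1b, 198 bases before that start. They are shown with their AP-1 letters in capitals because Hrh1 rose in SD mice and Adra1b did not pass the test at any time, so the same motif stood before a receptor gene with a call and one without. Hrh3, whose level moved most over the day, is shown as a window with none of the 4. A match describes the letters of the window and does not show a bound site.
Hrh1, start 4 of 4, chr6:114458272-114458571, plus strand: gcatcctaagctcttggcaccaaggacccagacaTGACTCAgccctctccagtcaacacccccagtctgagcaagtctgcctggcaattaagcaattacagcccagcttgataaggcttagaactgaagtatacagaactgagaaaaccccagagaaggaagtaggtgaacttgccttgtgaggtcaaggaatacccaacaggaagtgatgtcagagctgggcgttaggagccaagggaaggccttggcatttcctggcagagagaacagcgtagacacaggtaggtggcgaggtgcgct
Adra1b, start 1 of 2, chr11:43901188-43901487, minus strand: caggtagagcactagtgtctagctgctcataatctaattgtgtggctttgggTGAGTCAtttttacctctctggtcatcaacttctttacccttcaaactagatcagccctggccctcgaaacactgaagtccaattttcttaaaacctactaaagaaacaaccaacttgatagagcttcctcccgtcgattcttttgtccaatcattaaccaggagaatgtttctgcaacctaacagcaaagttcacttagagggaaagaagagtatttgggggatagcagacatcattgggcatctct
Hrh3, chr2:180104358-180104657, minus strand: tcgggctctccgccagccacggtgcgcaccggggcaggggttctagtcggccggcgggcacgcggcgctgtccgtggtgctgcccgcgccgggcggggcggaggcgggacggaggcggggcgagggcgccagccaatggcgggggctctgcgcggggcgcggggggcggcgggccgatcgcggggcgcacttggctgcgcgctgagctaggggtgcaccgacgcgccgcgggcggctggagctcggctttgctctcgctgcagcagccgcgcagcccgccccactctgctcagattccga

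The baseline day shows how these mRNAs moved in undisturbed mice. In NSD mice 6 of the 10 receptor mRNAs differed with time of day by limma's F test over the 5 times, against 41.9% of all genes called by the same test. They were Hrh3, Chrm1, Htr1a, Hrh1, Adrb1 and Hcrtr2. Those of Hcrtr1, Htr2a, Adra1a and Adra1b did not pass (adjusted p = 0.522, 0.166, 0.687 and 0.739).

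The receptor that moved most was Hrh3, the Gi-coupled histamine receptor. Its level averaged 6.62 ± 0.07 log2 CPM at ZT12 and 5.81 ± 0.04 log2 CPM at ZT3 (SD, n = 5 and 3), a difference of 0.80 ± 0.09 (SE) or 1.75-fold, with an adjusted p of 2.68e-13 over the 5 times. The order from high to low was ZT12, ZT18, ZT6, ZT0 and ZT3. The ZT12 libraries all lay above the ZT18 libraries and the ZT6 libraries all above the ZT0 libraries, while ZT18 overlapped ZT6 and ZT0 overlapped ZT3. Htr1a, the Gi-coupled serotonin receptor, was also highest at lights off: 4.35 ± 0.13 log2 CPM at ZT12 and 3.74 ± 0.19 log2 CPM at ZT0 (SD, n = 5 and 8; adjusted p = 9.62e-06). Its ZT12 mean stood above those of ZT3, ZT6 and ZT18, whose libraries overlapped one another. Chrm1 was highest in the dark, at 7.77 log2 CPM at ZT18 and lowest at 7.43 log2 CPM at ZT3 (difference 0.34 ± 0.05, adjusted p = 1.79e-08), and its ZT12 libraries all lay above its ZT0 libraries.

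The remaining cycling receptors were lowest at ZT6, in the middle of the light phase. Hrh1, the excitatory histamine receptor, averaged 4.28 ± 0.09 log2 CPM at ZT18 and 3.87 ± 0.17 log2 CPM at ZT6 (SD, n = 5 each; adjusted p = 0.000497). Adrb1 averaged 4.91 log2 CPM at ZT0 and 4.62 log2 CPM at ZT6 (difference 0.30 ± 0.09, adjusted p = 0.016). Hcrtr2 averaged 1.49 log2 CPM at ZT18 and 0.92 log2 CPM at ZT6 (difference 0.56 ± 0.18, adjusted p = 0.0326). Neighbouring times overlapped in all 3 of these genes. The call of Hcrtr2 was lost in batch 1 alone (adjusted p = 0.352) and without 1 of several single libraries (up to 0.176, without J76N1 of ZT6), while the other 5 calls held under each alternative run.

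**Figure D1:**
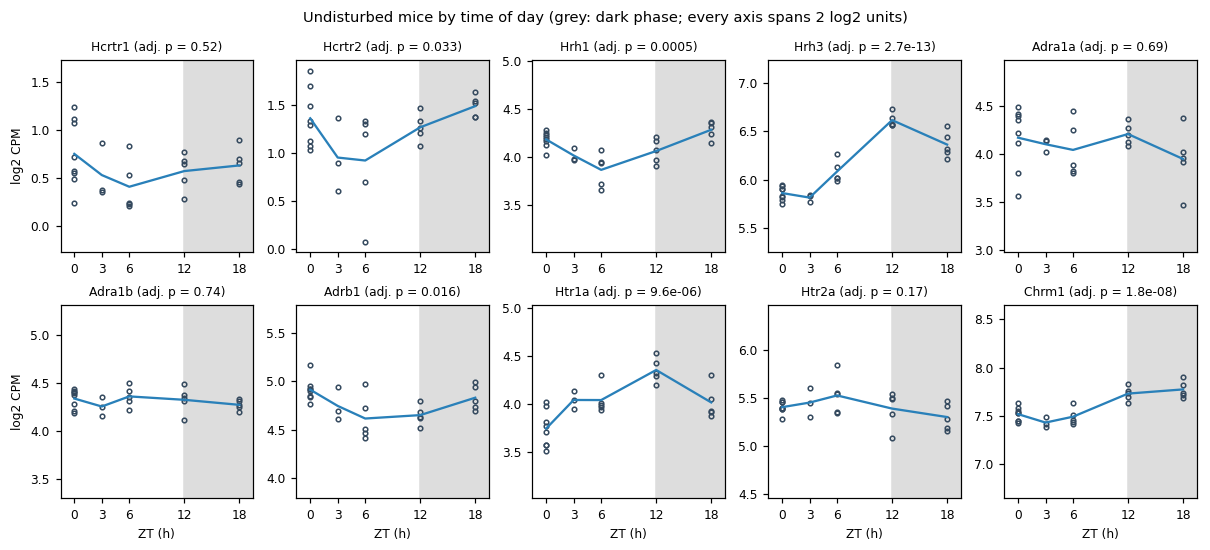
Levels of the 10 receptor mRNAs (log2 CPM, vertical axis, each spanning the same range) in undisturbed mice by zeitgeber time (h); circles are mice, lines join group means, and the grey area is the dark phase. Hrh3 and Htr1a peak at ZT12, Chrm1 stays high at ZT12 and ZT18, Hrh1 and Hcrtr2 are lowest at ZT6, and Adra1a and Adra1b show no call.

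After 3 h of deprivation (T27 against ZT3), Hrh1 and Hcrtr2 were higher and Htr1a was lower in SD than in NSD mice. That is 2 of 10 receptors higher, against 8.59% of all genes, and 1 of 10 lower, against 7.84%. At 6 h (T30 against ZT6), Hrh1, Hcrtr2 and Adrb1 were higher and Hrh3 and Htr1a lower: 3 of 10 higher, against 15.7% of all genes, and 2 of 10 lower, against 16.8%. The median log2 fold change of the 10 was 0.11 at T27 and 0.13 at T30, against −0.0068 and −0.0097 over all genes. Groups without overlap were common. At T27 all SD mice lay above all NSD mice in 2 of the 10 receptors (Hrh1 and Chrm1) and below them in 1 (Htr1a). Over all genes these shares were 17.3% and 17.1%. At T30 they lay above in 2 receptors and below in 2, against 16% and 17.3% of all genes.

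Hrh1, the excitatory H1 receptor whose blockade makes antihistamines sedating, rose at both times. It stood at 4.59, 4.45 and 4.59 log2 CPM in the SD mice of T27, against 4.10, 3.98 and 3.97 log2 CPM in the NSD mice of ZT3. Every SD mouse lay above every NSD mouse, and the log2 fold change was 0.53 ± 0.11 (SE), or 1.44-fold, with a limma adjusted p of 0.000337. At T30 it stood at 4.38, 4.31 and 4.30 log2 CPM in SD mice, against 3.95, 3.72, 3.93, 4.08 and 3.66 log2 CPM in NSD mice of ZT6. The groups again did not overlap, and the log2 fold change was 0.46 ± 0.10 (adjusted p = 0.000226). Both calls held under each alternative run, including without each library in turn.

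Hcrtr2, the orexin receptor that binds orexin A and orexin B and whose loss causes narcolepsy in dogs, was higher in SD mice with a wider spread. At T27 it stood at 1.25, 2.17 and 1.49 log2 CPM in SD mice, against 1.37, 0.89 and 0.60 log2 CPM in NSD mice, so the groups overlapped by the lowest SD mouse and the highest NSD mouse. The log2 fold change was 0.68 ± 0.23 (SE; limma adjusted p = 0.0345), and the call was lost without SD mouse T27S3 (0.42, adjusted p = 0.288), without T3N4 (0.51, adjusted p = 0.215) or T3N3 (0.65, adjusted p = 0.0905) of the NSD mice, and with those groups alone in the fit (adjusted p = 0.0558). At T30 its 3 SD mice, at 1.84, 1.67 and 1.51 log2 CPM, all lay above the NSD mice, at 0.08, 1.20, 1.33, 1.30 and 0.70 log2 CPM. The log2 fold change was 0.75 ± 0.21 (1.68-fold, limma adjusted p = 0.00491). It held without each single library, but within batch 1, which leaves out the lowest NSD mouse, it was 0.56 (adjusted p = 0.0526), and with the T30 and ZT6 libraries alone in the fit the adjusted p was 0.13. Hcrtr1, the other orexin receptor, stood at 0.98, 1.19 and 0.57 log2 CPM in SD mice of T30, against 0.21, 0.24, 0.54, 0.83 and 0.23 log2 CPM in NSD mice. Its log2 fold change of 0.50 ± 0.23 did not pass (limma adjusted p = 0.0949) except without T6N3 of the NSD mice (adjusted p = 0.0419), and its 95% interval ran from 0.03 to 0.97.

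Adrb1, the beta adrenoceptor that raises cyclic AMP, rose at T30. It stood at 5.02, 4.88 and 4.997 log2 CPM in SD mice, against 4.97, 4.50, 4.41, 4.72 and 4.47 log2 CPM in NSD mice. One NSD mouse lay within the SD range and the rest lay below it. The log2 fold change was 0.35 ± 0.11 (1.27-fold, limma adjusted p = 0.0136), and the call was lost without T30S1 (adjusted p = 0.0573), T30S4 (0.0529) or T6N2 (0.0585). At T27 its log2 fold change was 0.21 ± 0.12 (adjusted p = 0.258).

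Htr1a, which mediates inhibition by serotonin, fell at both times. It stood at 3.68, 3.55 and 3.56 log2 CPM in SD mice of T27, against 4.14, 3.95 and 4.04 log2 CPM in NSD mice, with no overlap. The log2 fold change was −0.45 ± 0.13 (SE; limma adjusted p = 0.0103), and the adjusted p was 0.0568 without T3N2. At T30 it stood at 3.61, 3.62 and 3.65 log2 CPM in SD mice, against 3.94, 4.01, 4.30, 3.98 and 3.96 log2 CPM in NSD mice. The SD mice lay below every NSD mouse, and the log2 fold change was −0.41 ± 0.12, 0.75 times the NSD level (adjusted p = 0.00476), under each alternative run.

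Hrh3 passed at T30 and not at T27. At T27 it stood at 5.73, 5.71 and 5.80 log2 CPM in SD mice, against 5.84, 5.83 and 5.77 log2 CPM in NSD mice, which overlapped (log2 fold change −0.07 ± 0.09, limma adjusted p = 0.701). At T30 it stood at 5.71, 5.73 and 5.55 log2 CPM in SD mice, against 6.27, 5.99, 6.01, 6.02 and 6.13 log2 CPM in NSD mice. The SD mice all lay below the NSD mice, with a log2 fold change of −0.42 ± 0.09 (adjusted p = 0.000145). The difference between the T30 and T27 effects was −0.35 ± 0.13 and did not pass (adjusted p = 0.474). None of the 10 receptors passed this test of the difference, against 0.00585% of all genes. An unadjusted p under 0.05 was found for 1 of the 10 (Hrh3) and for 1272 of the 17108 genes.

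Chrm1, the main excitatory muscarinic receptor of cortical pyramidal cells, did not pass at either time: its log2 fold change was 0.15 ± 0.06 at T27 (limma adjusted p = 0.0789) and 0.12 ± 0.05 at T30 (adjusted p = 0.0776). It passed at T27 with those groups alone in the fit (adjusted p = 0.0442), and at T30 without T6N3 (0.016) or T30S1 (0.0483). The log2 fold changes of Htr2a were −0.06 ± 0.10 at T27 and 0.14 ± 0.09 at T30 (adjusted p = 0.768 and 0.266), and those of Adra1b were 0.06 ± 0.10 and 0.08 ± 0.09 (adjusted p = 0.73 and 0.506). For Adra1a the 95% interval at T30 ran from −0.33 to 0.55, around an estimate of 0.11, and neither a fall nor a rise within it was excluded.

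**Figure D2:**
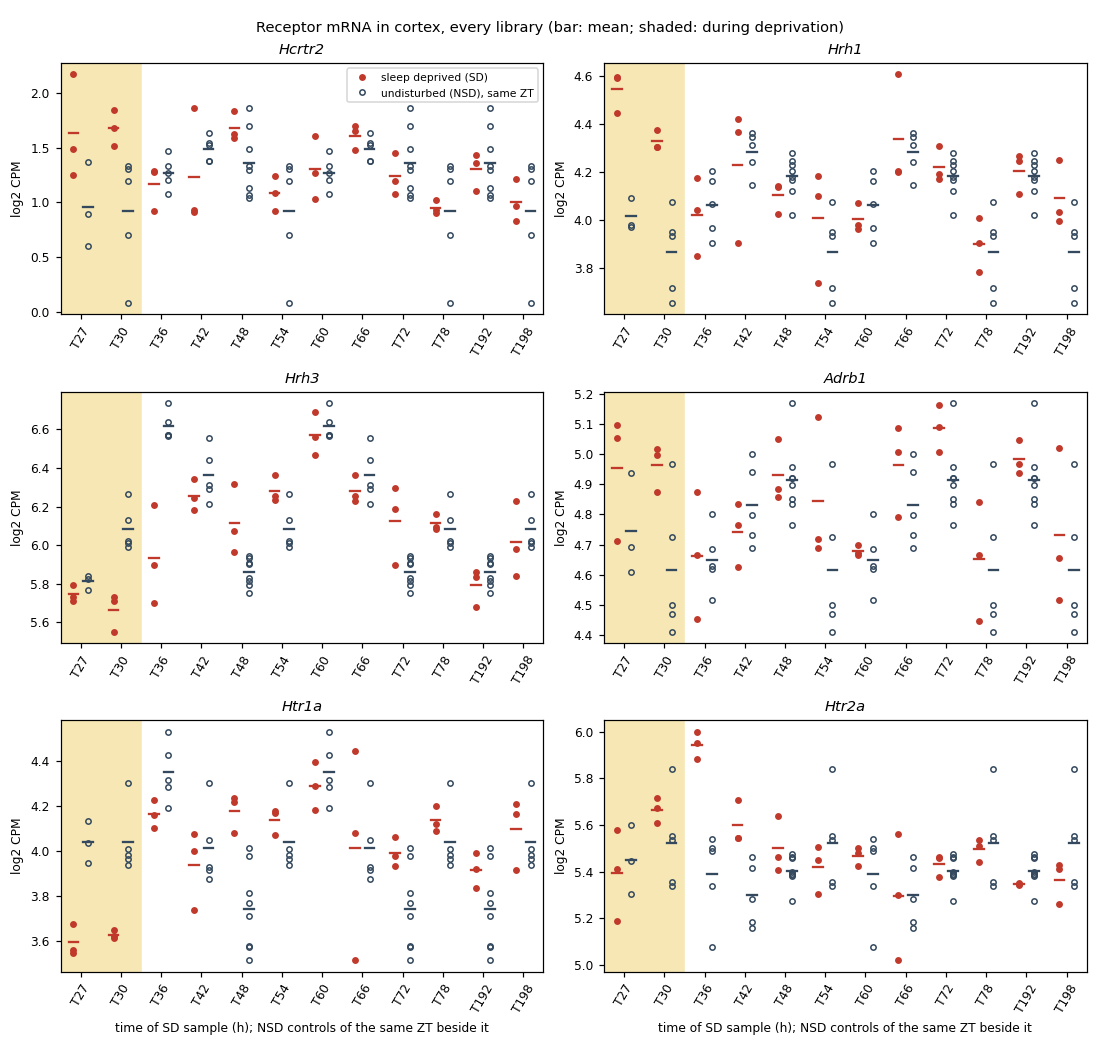
Levels (log2 CPM, vertical axis) of 6 receptor mRNAs at each SD time (horizontal axis, h), with every SD mouse (filled, left) beside every NSD mouse of the same zeitgeber time (open, right); short bars are group means and the shaded times fell during deprivation. Hrh1 stands above the NSD mice at T27 and T30 and Hcrtr2 at T30, with overlap at T27, Htr1a stands below them there and above them at T48, Hrh3 stands below them at T30 and T36, and Htr2a stands above them at T36.

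At lights off, 6 h after deprivation ended (T36 against ZT12), Htr2a was higher and Hrh3 lower in SD than in NSD mice. That is 1 of 10 receptors higher, against 6.9% of all genes, and 1 of 10 lower, against 5.58%. Htr2a, the excitatory serotonin receptor through which psychedelic drugs act, stood at 5.95, 6.00 and 5.88 log2 CPM in SD mice, against 5.08, 5.34, 5.54, 5.50 and 5.49 log2 CPM in NSD mice. The groups did not overlap, and the log2 fold change was 0.56 ± 0.09 (SE), or 1.47-fold, with a limma adjusted p of 3.13e-05. Hrh3 stood at 5.70, 5.90 and 6.21 log2 CPM in SD mice, against 6.57, 6.64, 6.56, 6.57 and 6.74 log2 CPM in NSD mice. Each SD mouse lay below each NSD mouse although the SD mice were spread more widely, and the log2 fold change was −0.68 ± 0.09, 0.623 times the NSD level (adjusted p = 8.67e-08). Both calls held under each alternative run. Hrh1, Hcrtr2, Adrb1 and Htr1a, called at T30, had log2 fold changes of −0.04, −0.11, 0.01 and −0.19 at T36 (adjusted p = 0.852, 0.809, 0.96 and 0.317).

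The change of effect between T36 and T30 was tested directly and passed for 4 of the 10 receptors, against 12.2% of all genes. The effect on Hrh1 was lower at T36 than at T30 by a log2 difference of −0.50 ± 0.14 (SE; limma adjusted p = 0.00896). That on Hcrtr2 differed by −0.86 ± 0.29 (adjusted p = 0.0441) and that on Chrm1 by −0.22 ± 0.07 (adjusted p = 0.04). The effect on Htr2a was higher at T36 by 0.41 ± 0.13 (adjusted p = 0.0272). These calls rested on few mice: without T36S2 none of the 4 passed (adjusted p = 0.057 for Hrh1), and in batch 1 alone 1 receptor passed. When each of the 16 libraries of the 4 groups was left out in turn, Hrh1 passed 15 times, Htr2a 12 times, and Hcrtr2 and Chrm1 6 times each. Over all 22 alternatives run, the adjusted p reached 0.0867 for Hrh1, 0.0762 for Htr2a, 0.248 for Hcrtr2 and 0.255 for Chrm1. For the other receptors called at T30 the difference did not pass, so a change of their effects was not shown. It was −0.33 ± 0.15 for Adrb1, 0.23 ± 0.16 for Htr1a and −0.26 ± 0.12 for Hrh3 (limma adjusted p = 0.157, 0.404 and 0.144).

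At T42 (against ZT18) none of the 10 receptors passed, against 1.03% of all genes. An unadjusted p under 0.05 was found for 2095 of the 17108 genes and for 1 of the 10 receptors. That was Htr2a, at 5.71, 5.54 and 5.54 log2 CPM in SD mice, against 5.16 to 5.46 log2 CPM (median 5.28) in NSD mice. The groups did not overlap, and its log2 fold change was 0.30 ± 0.09 (limma adjusted p = 0.124). All SD mice lay above all NSD mice in 2 of the 10 receptors (Htr2a and Adra1b), against 4.54% of all genes. At T48 (against ZT0), Htr1a was higher in SD mice, 1 of 10 receptors against 1.49% of all genes. It stood at 4.24, 4.08 and 4.22 log2 CPM in SD mice, against 3.51 to 4.02 log2 CPM (median 3.74) in the 8 NSD mice. The SD mice lay above every NSD mouse, and the log2 fold change was 0.44 ± 0.11 (adjusted p = 0.0287), a direction opposite to that at T27 and T30. This call was lost without any one of the 3 SD mice (adjusted p = 0.0529 to 0.123), without T0N2 (0.0777) or T0N5 (0.0716) of the NSD mice, and with those groups alone in the fit (0.0994). Without T48S3, the mouse with high cell body markers, the log2 fold change was 0.48 (adjusted p = 0.0529). In T48S3 Hcrtr1 stood at 1.93 log2 CPM, its highest value in any library, against 0.53 and 0.74 log2 CPM in the other SD mice of T48. The log2 fold change of Hcrtr1 at T48 was 0.31 ± 0.22 (limma adjusted p = 0.596). Summed markers of layer 6b and of interneurons also did not overlap at this time, as given with the other markers. Hrh3 at T48, at 5.96, 6.07 and 6.32 log2 CPM in SD mice, also lay above the NSD mice, at 5.75 to 5.94 log2 CPM (median 5.87), but its log2 fold change of 0.26 ± 0.08 did not pass (adjusted p = 0.098). All SD mice lay above all NSD mice in these 2 of the 10 receptors, Htr1a and Hrh3, against 2.37% of all genes.

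From T54 to T198 no receptor passed at any time, and neither did any other gene: 0% of all genes were called at each of these 7 times by limma, with 902 (T78) to 1750 (T54) genes at an unadjusted p under 0.05. Of the 70 tests of receptors there, 9 had an unadjusted p under 0.05, and the lowest limma adjusted p was 0.431, for Hrh3 at T54. Of the 9, 4 fell at T72, where 1067 of the 17108 genes were under 0.05. The 70 tests are not independent, since several share control mice. At T66 all SD mice lay above all NSD mice in 1 receptor (Adra1b), against 3.14% of all genes. The log2 fold changes ran from −0.50 (Hcrtr1 at T192) to 0.27 (Hrh3 at T72). Without SD mouse T54S4, 806 genes passed at T54, and none of the 10 receptors was among them.

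**Figure D3:**
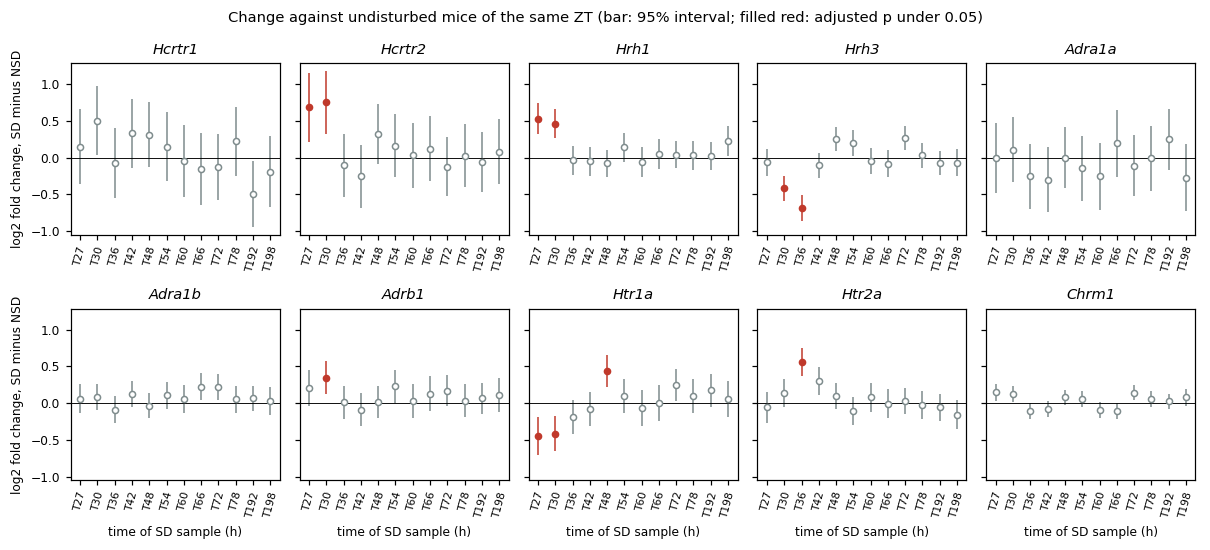
Log2 fold change of each receptor mRNA (SD minus NSD of the same zeitgeber time, vertical axis) at the 12 SD times (h, horizontal axis), with 95% intervals from limma; filled red points passed an adjusted p of 0.05. The calls lie at T27, T30, T36 and T48 and none lies later.

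Marker genes of other cells differed between SD and NSD mice at some of these times. At T27 the summed level of the choroid plexus markers (3 of 5 measured) was 2.24 to 2.66 log2 CPM in SD mice, against 3.02 to 6.94 log2 CPM in NSD mice, with Ttr and Clic6 called lower. Here the NSD mice of ZT3 stood apart, and not the SD mice. The ZT3 mean was 4.75 log2 CPM, against 2.39 log2 CPM at T27 and 2.31 to 2.79 log2 CPM in the other NSD groups. On the baseline day ZT3 was also the time of the lowest Hrh3 and Chrm1 means. The highest of the ZT3 mice was T3N2, without which the Hrh1 and Hcrtr2 calls at T27 held and that of Htr1a did not. No measured marker was at 0. The summed dentate gyrus markers (5 of 5 measured) were lower without overlap at T27 (5.01 to 5.21, against 5.21 to 5.34 log2 CPM in NSD mice), at T30 (4.95 to 5.05, against 5.19 to 5.40 log2 CPM in NSD mice) and at T36 (4.93 to 5.06, against 5.20 to 5.38 log2 CPM), with Plk5 called lower at T30 and T36. The summed microglia markers (5 of 5 measured) were 7.68 to 7.72 log2 CPM in SD mice of T30, against 7.73 to 7.78 log2 CPM in NSD mice, with P2ry12 and Cx3cr1 called lower and Tmem119 called higher. The summed interneuron markers (6 of 6 measured) were 10.16 to 10.22 log2 CPM in SD mice of T36, against 10.03 to 10.05 log2 CPM in NSD mice, with Vip and Lamp5 called higher. They were 10.11 to 10.15 log2 CPM at T42, against 9.97 to 10.11 log2 CPM in NSD mice, and 9.98 to 10.01 log2 CPM at T48, against 10.03 to 10.12 log2 CPM in NSD mice, with Lamp5 called lower and Gad2 called higher. At T48 the summed markers of layer 6b (3 of 3 measured), the deepest cortical layer, were 5.19 to 5.40 log2 CPM in SD mice, against 4.32 to 5.18 log2 CPM in NSD mice. The thalamus markers of T48S3 summed to 6.78 log2 CPM, against 5.83 to 6.03 log2 CPM in NSD mice of ZT0. The part of these differences in the receptor results was not tested. The summed markers of excitatory neurons, astrocytes, oligodendrocytes, endothelium, striatum and thalamus overlapped between SD and NSD mice at T27, T30, T36, T42 and T48.

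The other receptors of the same transmitters gave a wider view of the families. Of 24 listed, 19 were measured; 3 rose and none fell at T27 (against 8.59% and 7.84% of all genes), 5 rose and 1 fell at T30 (15.7% and 16.8%), 1 rose and 2 fell at T36 (6.9% and 5.58%), and 1 fell at T42 (1.03% called either way). Htr1b, another serotonin receptor, had the lowest p among them, with log2 fold changes of 0.91 ± 0.13 at T27 and 1.06 ± 0.12 at T30 (limma adjusted p = 2.03e-06 and 2.53e-09). At T42 it was lower in SD mice (−0.48 ± 0.12, adjusted p = 0.0338). Htr5b also rose at T27 and T30 (1.53 ± 0.28 and 1.19 ± 0.26), as did Hrh2, the Gs-coupled histamine receptor (0.36 ± 0.08 and 0.31 ± 0.07). Adra1d and Adra2c rose at T30 (0.66 ± 0.10 and 0.56 ± 0.11), and Chrm3, another Gq-coupled muscarinic receptor, fell (−0.19 ± 0.05, adjusted p = 0.00473). At T36 Adra1d was still higher (0.42 ± 0.10), and Htr4 and Htr2c were lower (−0.69 ± 0.20 and −0.67 ± 0.20). Htr4 also had a low mean level, 0.12 log2 CPM.

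**Figure D4:**
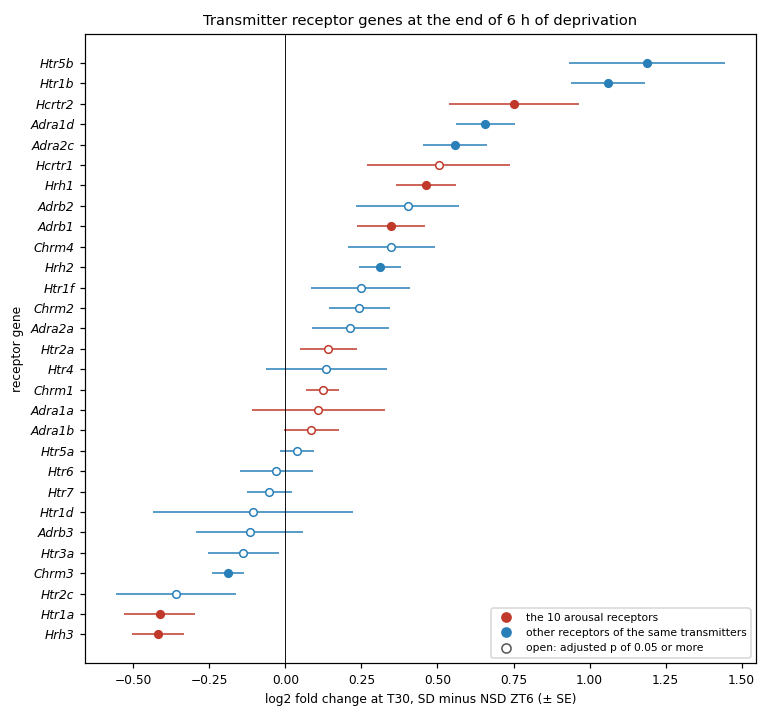
Log2 fold change at T30 (SD minus NSD ZT6, ± SE, horizontal axis) of the 10 arousal receptors (red) and the 19 other measured receptors of the same transmitters (blue), sorted by size; filled points passed an adjusted p of 0.05. Htr5b, whose mean level was only −0.68 log2 CPM, and Htr1b lie furthest to the right, and Hrh3 and Htr1a furthest to the left.

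Genes that act with these receptors were counted in the same way, and the same shares of all genes apply: 8.59% higher and 7.84% lower at T27, and 15.7% higher and 16.8% lower at T30. Of 19 measured G proteins and effector enzymes, 1 was higher at T27, and 1 was higher and 2 lower at T30: Adcy3, an adenylyl cyclase, rose (0.32 ± 0.05, limma adjusted p = 7.1e-06), and Gnai1 and Plcb1, which carry Gi and Gq signals, fell (−0.18 ± 0.06 and −0.19 ± 0.06). Of 7 receptor kinases and arrestins, which turn off active receptors, 3 rose at T30: Grk2 (0.25 ± 0.05), Arrb1 (0.14 ± 0.04) and Arrb2 (0.15 ± 0.05). Of 6 transmitter-degrading enzymes, 2 fell at T30: Maoa, which breaks down serotonin and noradrenaline (−0.43 ± 0.06, adjusted p = 4.68e-08), and Hnmt, which breaks down histamine in the brain (−0.43 ± 0.09, adjusted p = 0.000162). Of 10 measured nicotinic subunits, 2 fell at T27 (Chrna7, −0.35 ± 0.11, and Chrnb3, −0.48 ± 0.15) and 1 at T30 (Chrnb3, −0.51 ± 0.14). Of 4 measured dopamine receptors, 1 was lower at T27 (Drd4, −1.03 ± 0.35) and none passed at T30. Later, the same gene was the 1 higher at T42 (Drd4, 1.31 ± 0.32), against 1.03% of all genes called either way. At T48 2 were higher (Drd5, 1.18 ± 0.21, and Drd2, 1.24 ± 0.34), against 1.49%. Drd2 had a low mean level, −0.47 log2 CPM. The part of library T48S3 in the T48 calls was not tested.

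Likeness between genes was measured over the 17 group means of SD and NSD mice, which share the same batch adjustment. Among the 10, Hcrtr2 and Hrh1 were most alike (Pearson r = 0.78), followed by Hrh3 and Htr1a (0.75) and by Hrh1 and Adrb1 (0.72). Hrh1 and Htr1a ran most against each other (−0.72). Of all other genes, Hrh3 was most like the clock output genes Tef (0.95) and Per3 (0.93) and like Mthfd1l (0.94). Those most like Hrh1 were Sh3gl1 (0.96), Slc39a2 (0.95) and Mir124a-1hg (0.95), and those most like Hcrtr2 were P4ha2 (0.95), Lats2 (0.94) and Gm47135 (0.94). The genes most like Htr1a were Oprl1 (0.93), Stard7 (0.92) and Lcorl (0.91), and those most like Htr2a were Rapgef5 (0.94), Tbc1d8 (0.91) and Rasa4 (0.89). For Adrb1 they were Irf2bpl, Otud1 and Rbm24 (each 0.92), for Adra1a A930004J17Rik (0.95), Mdm4 (0.94) and Gucy1a2 (0.92), and for Chrm1 Nmt1 (0.87), Strn4 (0.85) and Tiam2 (0.84). The highest for Hcrtr1 was 0.85 (Coro1c) and for Adra1b 0.72 (Gm44593). These are descriptions over groups, with no test.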

How the data were processed

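The deposited values are log2 CPM per gene in cortex, 1 table of 62 libraries, as the sums of their antilogs (979200 to 1020000 per library) show. Reads were processed with fastp, STAR 2.7.0e and edgeR on mouse build GRCm38 (mm10), per the submitters' processing notes, without settings. The labels mark the cortex libraries as taken from an earlier study and describe extraction for liver only, so the preparation of the cortex and its counting are unknown here. The difference between label batches was 0 for every gene, so the values had been adjusted for batch before deposit. Read depth is unknown, so the counting error of low values cannot be computed.

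Of 17185 entries, 77 without a gene name (0.0618% of the signal) were left out, which leaves 17108. Log2 values were tested without a pseudocount or filter in R 4.3.3 with limma 3.58.1 (lmFit, eBayes with a mean trend), in 1 fit of 17 groups plus a batch term, which left 44 residual degrees of freedom. Contrasts were SD minus NSD of the same zeitgeber time, an F test over the 5 NSD times, and differences of effects; p-values are two-sided and adjusted by Benjamini-Hochberg over all named genes within each contrast. Because the batch difference is 0, a log2 fold change equals the difference of group means. For the same reason, leaving out the batch term changes standard errors and p-values but no log2 fold change. The code was tested on simulated data. The members and gene lists were chosen with earlier results of these data known. The text names all 10 receptors, up to 6 called genes of each list and comparison by smallest p, and the 3 genes with the highest Pearson correlation over the group means. Lengths are exon unions of GENCODE M21. Alternatives were no batch term, 1 batch only, only the compared groups, libraries centred on their median, no genes of the lowest 20%, log2(CPM + 1), eBayes without a trend, a 24 h cosine for the baseline, and each library left out. Figures were drawn with matplotlib 3.10.9.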

Additional observations from a re-analysis of the deposited data

Results flagged for a closer look

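In the groups of NSD mice, 40 combinations of receptor and group were examined for a single mouse far from the others, and chance marks about 1 in 20. There were 3. Htr1a in T6N2 of ZT6 stood at 4.30 log2 CPM, with the next mouse at 4.01. Adrb1 in T0N2 of ZT0 stood at 5.17, with the next at 4.96, and Htr2a in J70N1 of ZT0 stood at 5.27, with the next at 5.38 log2 CPM; both were barely past the limit. T6N2 is one of the mice without which the Adrb1 call at T30 was lost, although it was marked for Htr1a, and T0N2 one of those without which the Htr1a call at T48 was lost.

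The effect of deprivation differed between T36 and T30, by the test of the difference itself, for Hcrtr2 (−0.86), Hrh1 (−0.50), Htr2a (0.41) and Chrm1 (−0.22, all on the log2 scale). Of the 22 alternatives run, Hrh1 passed in 20, Htr2a in 18, Hcrtr2 in 10 and Chrm1 in 9.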

How the results depend on the processing

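No called value changed direction under the alternatives run, while some values near 0 that were not called changed sign, such as Htr2a at T27 (−0.15 to 0.05) and Hrh1 at T36 (−0.12 to 0.05). The count of receptors changed at T48 was 0 instead of 1 with only the compared groups in the fit, and 0 to 1 without single libraries. The count whose effect differed between T36 and T30 was 1 in batch 1 alone and 2 with eBayes without a trend, instead of 4, and 0 to 4 without single libraries. The other counts of receptors called in either direction, at T27, T30, T36, T42 and from T54 on, for the baseline and for the difference between T30 and T27, stayed within 1.5 times their value; split by direction, the 2 higher at T27 became 1 without T27S3, T3N3 or T3N4, and the 1 lower became 0 without T3N2. Values of single receptors under alternatives were counted for the 27 pairs of receptor and comparison called as reported or in at least 1 alternative. Of these values, 507 kept their side of the threshold, 53 no longer passed and 7 newly passed. Most of the lost calls were in the test of T36 against T30. The lowest 20% of genes include Hcrtr1, which then has no value. Over all genes, 177 passed at T42, 98 in batch 1 alone and 31 with the compared groups alone; 255 passed at T48, 419 without a batch term, 142 in batch 1 alone and 50 with the compared groups alone. At T60 44 passed with the compared groups alone, instead of 0, at T66 14 without a batch term, at T198 76 without J76S2, and at T36 1078 without T36S1. The difference between T36 and T30 gave 2082 genes, and 1246 in batch 1 alone, and the baseline 7162, and 4739 in batch 1 alone. Centring moved the median of all genes by less than 0.1. The causes were not tested. No paired analysis was possible because the cortex groups compared hold different mice. With 3 mice a group and unknown depth, small changes of Hcrtr1, Hcrtr2 and Adra1a could not be seen.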

Other observations

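Within groups, some receptors varied together with other genes. The deviations of Adrb1 from its group means over the 62 libraries ran closest, of 17107 genes compared, with those of Sik1 (Pearson r = 0.83, Spearman 0.80, r = 0.78 without the 2 libraries farthest out), Nr4a1 (0.82), Junb (0.80), Trib1 (0.79) and Per1 (0.79), which are known as genes quickly induced by neuronal activity or cyclic AMP. Because these are the highest of all genes and the mice share batches, no test is given.

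Adra1a had a residual SD of 0.32, wider than each of the 500 genes nearest to it in level (median 0.09). Its deviations ran with those of Stxbp5l, Gucy1a2, Dgki, Xkr4 and Camk4 (Pearson r = 0.95, 0.95, 0.95, 0.94 and 0.94), and r with Gucy1a2 was 0.94 without the 2 libraries farthest out. The lowest libraries were SD mouse J76S1 of T198 (−0.85) and NSD mouse J70N2 of ZT0 (−0.60), where Gucy1a2 deviated by −1.28 and −1.17. What these libraries share was not tested.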
